A study of Homo sapiens with 2 samples.

Results

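The zinc finger (ZNF) genes of 19p12 form a cluster on the short arm of chromosome 19, next to the centromere. The set studied here holds 32 of these genes, taken from a fixed list by their symbols, out of 16920 genes with at least 1 probe set of their own on the array. Of the 32 members, 22 had probe sets of their own, 204 in all, with 4 to 18 per gene. The other 10, ZNF506, ZNF90, ZNF486, ZNF737, ZNF714, ZNF708, ZNF98, ZNF492, ZNF730 and ZNF726, had none and have no level here.

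Expression was measured by Affymetrix Human Exon arrays on total RNA of cultured human cells. HCT116-DKO cells carry disruptions of both DNMT1 and DNMT3B (DNMT1-/- DNMT3b -/-) and are the DKO1 line, a single derivative of the colorectal cancer line HCT116. HCT116-WT cells are that parental line, with neither gene disrupted. The DNMT1 disruption of this line is known to leave a truncated transcript and some residual protein, so the line is no full loss of both enzymes. Both were grown in McCoy's medium with serum and without treatment, and each was measured on 1 array, so the values carry no replicate error and no p-value could be given.

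Most genes of this cluster encode repressors with a KRAB domain and a row of C2H2 zinc fingers. The fingers bind DNA, and the KRAB domain recruits TRIM28, which brings the H3K9 methyltransferase SETDB1 and silences the bound site. The 19p12 genes multiplied by repeated duplication during primate evolution, and several of them bind retroelements: in human cells ZNF91 represses SVA elements and ZNF93 represses part of the LINE1 families. DNMT1 maintains DNA methylation after replication, while DNMT3B acts mainly on unmethylated sites. The comparison asks whether transcripts of these genes differ when both enzymes are disrupted.

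Most member promoters shared a long stretch of identical bases with the promoter of another member. The longest such stretch was 43 bases for ZNF91 and ZNF675, 35 for ZNF100 and 46 for ZNF254. It was shorter for ZNF14 (13 bases), ZNF101 (20) and the promoters of ZNF682 (11 and 20), and 26 to 46 bases for all others. Promoters are shown first because 4 of the 5 genes printed had differences of at most -1 between HCT116-DKO and HCT116-WT, while ZNF14 differed little. Each line gives, from 5′ to 3′ and on the strand of the gene, the 150 bases before the listed transcription start, from RefSeq on build GRCh38.p14. The places are chr19:23395472-23395621 (minus strand) for ZNF91, chr19:23687213-23687362 (minus) for ZNF675, chr19:21767580-21767729 (minus) for ZNF100, chr19:24087037-24087186 (plus) for ZNF254 and chr19:19733113-19733262 (minus) for ZNF14. Capitals mark a run of 10 bases that a search over all runs of this length found in the largest number of member promoters.
ZNF91: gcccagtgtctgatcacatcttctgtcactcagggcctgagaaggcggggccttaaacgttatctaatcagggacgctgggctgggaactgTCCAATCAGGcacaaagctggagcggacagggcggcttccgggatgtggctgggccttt
ZNF675: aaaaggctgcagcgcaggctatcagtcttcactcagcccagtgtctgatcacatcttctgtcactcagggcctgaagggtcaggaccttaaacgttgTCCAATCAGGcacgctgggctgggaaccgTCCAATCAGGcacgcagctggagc
ZNF100: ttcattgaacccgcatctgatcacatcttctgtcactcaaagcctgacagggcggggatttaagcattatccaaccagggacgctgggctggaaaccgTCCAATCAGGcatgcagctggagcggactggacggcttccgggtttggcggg
ZNF254: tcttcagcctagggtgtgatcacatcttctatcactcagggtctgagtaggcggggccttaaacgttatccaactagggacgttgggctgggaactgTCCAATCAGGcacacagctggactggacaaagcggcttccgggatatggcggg
ZNF14: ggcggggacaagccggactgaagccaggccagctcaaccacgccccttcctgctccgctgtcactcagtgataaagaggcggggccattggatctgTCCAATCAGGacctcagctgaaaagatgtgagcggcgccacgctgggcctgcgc

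The run in capitals, TCCAATCAGG, holds a CCAAT box, an element common to many promoters. RefSeq promoter sequences of 300 bases, 250 before and 50 after the start, were matched for 26 of the 32 members. None was matched for ZNF506, ZNF253, ZNF738, ZNF676, ZNF98 and ZNF99. The promoter results therefore do not cover ZNF738, the only member counted as fallen below. The run was held on either strand by 24 of the 26 matched members (92.3%). Its 30 copies began 24 to 88 bases before the start, with a median of 58, and 6 members held 2 copies, ZNF675 among them. Of the 2 promoters listed for ZNF682, 1 lacked it. By comparison 19 of 191 other ZNF genes of chromosome 19 (9.95%) and 0.428% of all genes of the promoter table held it. Since the run was chosen for its frequency in the members, its share in them is a description only. ZNF493 and ZNF257 lacked the full run but held its core CCAATCAG, which was present in all 26 matched members, in 16.2% of the other ZNF genes of chromosome 19 and in 4.75% of all genes. The run was found both in ZNF675, ZNF91, ZNF100 and ZNF254 and in ZNF14 and ZNF101, whose levels were near-equal in both arrays.

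Member promoters held few CG dinucleotides, the sites at which DNA methylation is placed. The 27 promoters had a median of 10 CG per 300 bases (range 8 to 18), against a median of 21 in 242 promoters of the other ZNF genes of chromosome 19 and 14 over all 35116 promoters. The median was also 21 in 22199 promoters of protein-coding genes. The counts were 11 for ZNF91, 10 each for ZNF675, ZNF100 and ZNF254, and 16 for ZNF14. The G+C share was 56% in the median member promoter, 58.7% over all promoters and 62.3% over those of protein-coding genes. Of the motifs searched on both strands, GCGCATGC (NRF1), CCGGAAGT (ETS factors) and CTCGCGAG (ZBTB33 type) were in 0 member promoters and in 3.05%, 4.14% and 1.02% of all promoters. The exact ETS motif was in 19.8% of promoters of the other ZNF genes of chromosome 19. Only exact matches were counted. The run GGCTTCCGGG, in 18 member genes, holds all but the last letter of the ETS motif on the other strand, so related ETS sites are not excluded. AAGATGGC (YY1) was found in 1 member promoter, that of ZNF675, and in 2.89% of all promoters.

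Signals were set against a background taken from 286 olfactory receptor genes, the 95th percentile of their levels in each array, which was 7.30 in HCT116-DKO and 7.08 in HCT116-WT on the log2 scale. A gene level is the median polish of its probe sets, and differences are HCT116-DKO minus HCT116-WT in log2 units. The same background, drawn from gene levels, was also used for single probe sets. How many probe sets of silent genes exceed it was not tested. A gene was counted as risen or fallen with at least 3 probe sets, a difference of at least 1 in size, the same sign in at least 75% of the probe sets and a level above background in the brighter array. Median signals over all 287329 probe sets were 8.37 in HCT116-DKO and 8.28 in HCT116-WT. The targeted DNMT1 fell to 9.36 in HCT116-DKO, against 10.63 in HCT116-WT, with 50 of 50 probe sets lower, and DNMT3B fell to 6.91 in HCT116-DKO, against 8.32 in HCT116-WT, with 30 of 32 lower. Of 9 measured epithelial and colon markers 6 were above background in both arrays, while KRT20, VIL1 and ELF3 were above it in neither, and 0 changed. Of 17 measured markers of other cell types, the fibroblast marker THY1 rose to 7.64 in HCT116-DKO, against 6.23 in HCT116-WT, and the blood marker LCP1 rose to 7.48 in HCT116-DKO, against 6.30 in HCT116-WT. Of the 7 fibroblast markers COL1A1, COL1A2 and PDGFRB were above background in both arrays, COL3A1 in HCT116-WT only, THY1 in HCT116-DKO only, and DCN and LUM in neither, with a range over the list of 3.48 to 8.64 in HCT116-DKO and 3.54 to 8.64 in HCT116-WT. Of the 5 measured blood markers LCP1 was above background in HCT116-DKO only, SPI1 in HCT116-WT only, and PTPRC, CD3E and CD14 in neither, with ranges of 3.88 to 7.48 in HCT116-DKO and 3.81 to 7.25 in HCT116-WT. All 5 endothelial markers were above it in neither. The part of other cells in the values below was not tested.

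The 19p12 ZNF genes had lower signal in HCT116-DKO than in HCT116-WT. Of the 22 measured members 17 were lower and 5 higher, with a median difference of -0.38 (interquartile range -0.93 to -0.07), beside a median of 0.02 over all 16253 genes with at least 3 probe sets. Among these 16253 genes 46.3% were lower. Quantile normalization made 20 and median centring 19 of the 22 lower, with medians of -0.48 and -0.47, and moved the median of all genes to -0.07. With every level below background set to background the median of the members was 0.22, the distance between both backgrounds. By the rule 0 members rose and 1, ZNF738, fell. Over all genes 2.66% rose and 0.535% fell, and the count among the members rests on a single gene. Only ZNF101 and ZNF14 were above background in both arrays, and 17 members were above it in neither. In such bulk samples fewer cells that express a gene and less RNA per cell cannot be told apart. The genes of this cluster are similar in sequence, so a probe set may bind transcripts of more than 1 of them, and this was not tested.

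**Figure D1:**
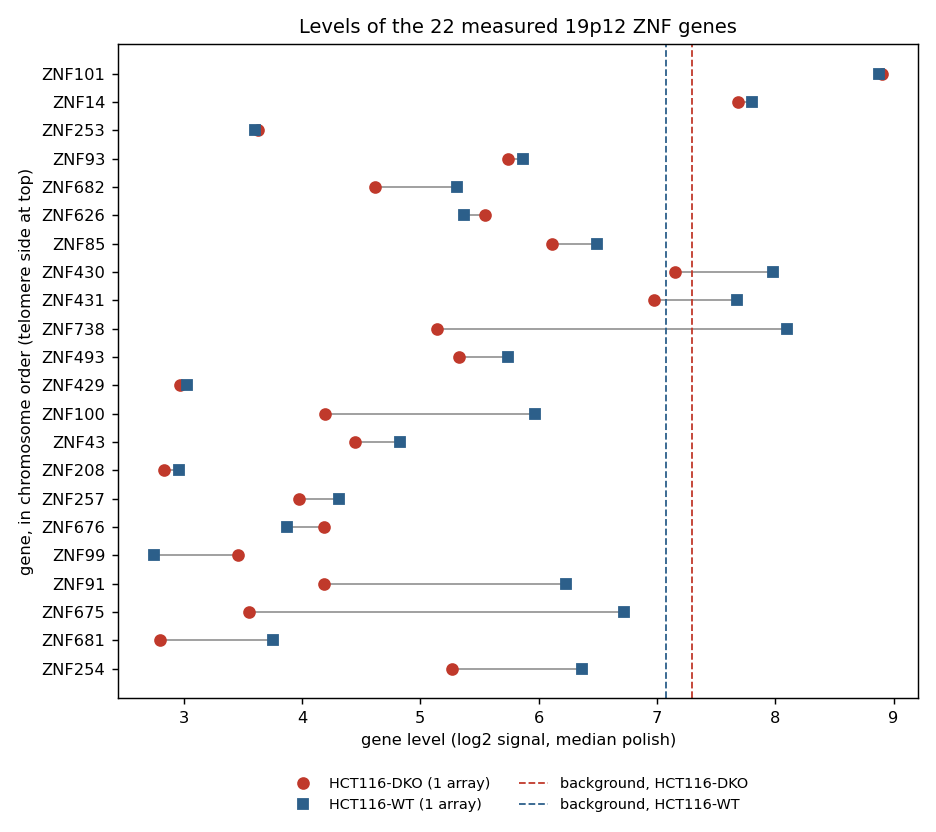
Gene levels (log2 signal) of the 22 measured members, in chromosome order with the telomere side at the top, as 1 point for HCT116-DKO and 1 for HCT116-WT per gene; dashed lines mark background (7.30 in HCT116-DKO and 7.08 in HCT116-WT). ZNF738, ZNF100, ZNF91 and ZNF675 have the widest gaps, all with HCT116-DKO on the lower side, and no member crosses from below to above background in HCT116-DKO.

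ZNF738 was the member that fell by the rule. Its level was 5.14 in HCT116-DKO, against 8.10 in HCT116-WT, a difference of -2.96 (SD over probe sets 1.80), and all 9 of 9 probe sets were lower. Because the HCT116-DKO level lay below background, the fold is given as at least 1.74-fold lower. Of its 9 probe sets 1 was above background in HCT116-DKO and 8 were in HCT116-WT. The probe set at place 1 in the order of probe set IDs, the 1 above background in both arrays, had 8.25 in HCT116-DKO and 8.86 in HCT116-WT, a difference of -0.61. Those at places 3 and 7 were at 8.12 and 8.67 in HCT116-WT and not above background in HCT116-DKO (2.47 and 3.20), so the sizes of their differences cannot be set against that of place 1.

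A further 4 members, ZNF675, ZNF91, ZNF100 and ZNF254, passed every part of the rule but that on background. Their gene levels lay below background in both arrays, so they have no measured fold and were not counted as fallen. ZNF675, whose product is known as an inhibitor of TRAF6 signalling, was at 3.55 in HCT116-DKO and 6.72 in HCT116-WT, a difference of -3.17 (SD over probe sets 1.12), with 6 of 6 probe sets lower (range -4.94 to -1.92). ZNF91, the repressor of SVA elements, was at 4.19 in HCT116-DKO and 6.23 in HCT116-WT, a difference of -2.04 (SD 1.44), with 17 of 18 probe sets lower. ZNF100 was at 4.19 in HCT116-DKO and 5.97 in HCT116-WT, a difference of -1.78 (SD 1.44), with 11 of 11 probe sets lower. ZNF254 was at 5.26 in HCT116-DKO and 6.37 in HCT116-WT, a difference of -1.10 (SD 1.37), with 9 of 9 lower. With the demand on background removed, these 4 and ZNF738 made 5 of 22 members lower and 0 higher, beside 0.646% of all genes lower and 3.72% higher. Among the 4464 genes above background in neither array, 18 (0.403%) were lower by this criterion, and these 4 members were among the 18.

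Single probe sets of these genes exceeded the background, which was drawn from gene levels, in HCT116-WT. ZNF91 had 3 of 18 probe sets above background in HCT116-DKO and 7 of 18 in HCT116-WT. Its brightest, at place 7, had 9.17 in HCT116-DKO and 10.07 in HCT116-WT, a difference of -0.89. Place 13 had 8.48 in HCT116-WT and was not above background in HCT116-DKO (2.94). ZNF100 had 1 of 11 above background in HCT116-DKO and 5 of 11 in HCT116-WT. The 1 above it in both arrays, at place 9, had 7.87 in HCT116-DKO and 9.22 in HCT116-WT, a difference of -1.35. Place 10 of ZNF100 had 8.86 in HCT116-WT and was not above background in HCT116-DKO (5.19). ZNF254 had 2 of 9 above background in HCT116-DKO and 6 of 9 in HCT116-WT. The 2 were above it in both arrays. Place 3 had 7.96 in HCT116-DKO and 8.93 in HCT116-WT, a difference of -0.96. Place 7 had 7.54 in HCT116-DKO and 9.23 in HCT116-WT, a difference of -1.69. In ZNF675 no probe set was above background in HCT116-DKO and 2 of 6 were in HCT116-WT, with 2.85 and 5.33 in HCT116-DKO at these places, against 7.78 and 7.54 in HCT116-WT. In each of these 4 genes fewer probe sets exceeded background in HCT116-DKO. The 4 genes were picked for lower signal in HCT116-DKO, and background was higher there (7.30 against 7.08 in HCT116-WT). These counts are therefore a description only.

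**Figure D2:**
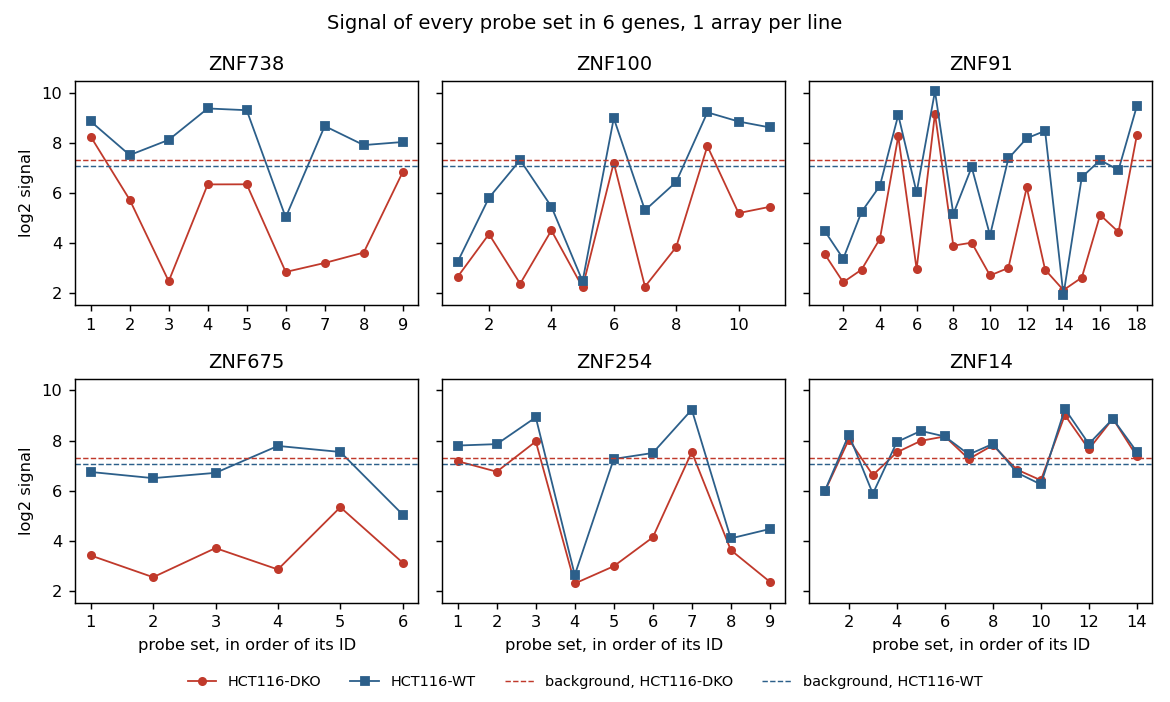
Log2 signal of every probe set, in the order of probe set IDs, for ZNF738, ZNF100, ZNF91, ZNF675, ZNF254 and, as a member that differed little, ZNF14; 1 line per array and dashed lines for background. The HCT116-DKO line lies under the HCT116-WT line at all places in ZNF738, ZNF100, ZNF675 and ZNF254 and at 17 of 18 in ZNF91, while both lines run together in ZNF14.

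Of the 204 member probe sets 41 were above background in HCT116-DKO and 69 in HCT116-WT. All 41 were also above it in HCT116-WT, and the other 28 passed in HCT116-WT only, so that over the 69 the direction was partly fixed by the demand on background. The 41 above background in both arrays, taken after the values had been seen, belonged to 17 members. Of these 41, 35 (85.4%) were lower in HCT116-DKO, with a median difference of -0.46 (range -1.69 to 0.67), beside 47.7% of such probe sets over all genes and 42.0% over the other ZNF genes of chromosome 19. The 6 that were not lower belonged to ZNF101 and ZNF14. In 7 of the 41 (17.1%), of ZNF85, ZNF430, ZNF493, ZNF100, ZNF91 and ZNF254, the signal was lower by at least 1, beside 0.874% over all genes, and in 0 it was higher by at least 1, beside 2.17%. Over all 204 probe sets, dim ones included, differences of at least 1 were downward in 61 (29.9%) and upward in 5 (2.45%), whereas over all genes 2.68% were downward and 6.33% upward. Probe sets of 1 gene share their transcript and, in this family, similar sequence, so they are not independent measurements.

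**Figure D3:**
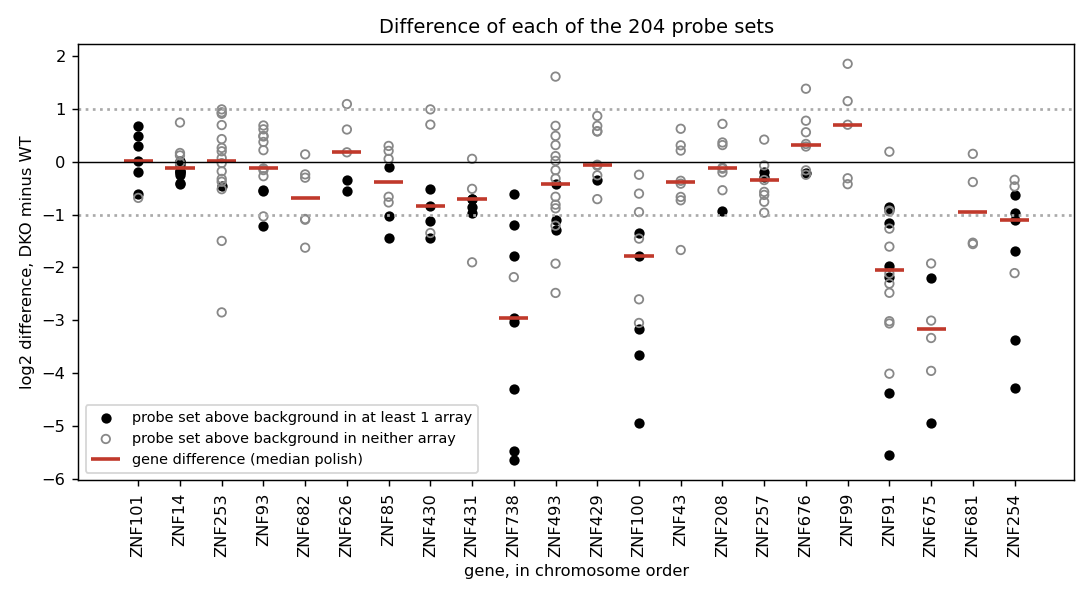
Log2 difference (HCT116-DKO minus HCT116-WT) of each of the 204 probe sets by gene, in chromosome order; filled points were above background in at least 1 array, open points in neither, and each horizontal bar is the difference of the gene. Of the 69 filled points 28 were above background in HCT116-WT only and 0 in HCT116-DKO only, and the open points above 1 belong to ZNF493, ZNF626, ZNF676 and ZNF99.

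With gene levels built only from probe sets above background in at least 1 array, 11 members kept 3 or more probe sets. Since 28 member probe sets were above background in HCT116-WT only and 0 in HCT116-DKO only, many were kept through their HCT116-WT signal alone, and the counts are a description. By the rule 6 of these 11 fell and 0 rose, beside 0.766% of 13839 genes that fell under the same setting. The 6 were ZNF738, ZNF100, ZNF91, ZNF254, ZNF85 and ZNF493, and the median of the 11 was -1.03. ZNF85 was then at 8.79 in HCT116-DKO and 9.81 in HCT116-WT over 3 probe sets, a difference of -1.03. ZNF493 was at 7.38 in HCT116-DKO and 8.49 in HCT116-WT over 3 probe sets, a difference of -1.11. Over all their probe sets both differed less, with ZNF85 at 6.11 in HCT116-DKO and 6.49 in HCT116-WT and ZNF493 at 5.33 in HCT116-DKO and 5.74 in HCT116-WT.

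Of the remaining members, ZNF430 and ZNF431 were above background in HCT116-WT only. ZNF430 was at 7.15 in HCT116-DKO and 7.98 in HCT116-WT, a difference of -0.83, with 5 of 7 probe sets lower, at least 1.61-fold. ZNF431 was at 6.98 in HCT116-DKO and 7.68 in HCT116-WT, a difference of -0.70, with 6 of 7 lower, at least 1.30-fold. At a log2 threshold of 0.58 in place of 1, ZNF431 and ZNF738 counted as fallen and 0 members as risen, beside 1.8% of all genes fallen and 5.67% risen. ZNF430 did not meet the share of probe sets asked for, and its difference was 0.09 over odd-numbered probe sets alone.

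ZNF101 and ZNF14, the members above background in both arrays, lie at the end of the cluster away from the centromere and had near-equal levels. ZNF101 was at 8.90 in HCT116-DKO and 8.88 in HCT116-WT, with 4 of 7 probe sets higher, and its difference of 0.02 was below 0 under quantile normalization (-0.04). ZNF14 was at 7.69 in HCT116-DKO and 7.80 in HCT116-WT, with 9 of 14 lower, and its differences over probe sets had an SD of 0.29.

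The gene levels of the other 11 members were above background in neither array, but 7 of them had single probe sets above it in both arrays, each lower in HCT116-DKO. ZNF93, the repressor of LINE1 elements, had 11.09 in HCT116-DKO and 11.61 in HCT116-WT at place 11, ZNF257 had 10.10 in HCT116-DKO and 10.37 in HCT116-WT at place 2, and ZNF253 had 9.30 in HCT116-DKO and 9.77 in HCT116-WT at place 3. ZNF429 had 9.33 in HCT116-DKO and 9.67 in HCT116-WT at place 7, ZNF626 had 8.52 in HCT116-DKO and 8.86 in HCT116-WT at place 4, ZNF208 had 7.58 in HCT116-DKO and 8.51 in HCT116-WT at place 8, and ZNF676 had 7.66 in HCT116-DKO and 7.88 in HCT116-WT at place 7. The gene levels below are mostly made of probe sets that were not above background. ZNF682 was at 4.62 in HCT116-DKO and 5.31 in HCT116-WT (-0.69, 5 of 6 probe sets lower), and ZNF681 at 2.80 in HCT116-DKO and 3.76 in HCT116-WT (-0.96, 3 of 4 lower). ZNF43 was at 4.44 in HCT116-DKO and 4.83 in HCT116-WT (-0.39, 5 of 8 lower), and ZNF257 at 3.97 in HCT116-DKO and 4.32 in HCT116-WT (-0.35, 8 of 9 lower). These 4 had lower signal in HCT116-DKO under both scalings as well. For ZNF93 the levels were 5.74 in HCT116-DKO and 5.87 in HCT116-WT. ZNF208 was at 2.84 in HCT116-DKO and 2.96 in HCT116-WT, ZNF429 at 2.97 in HCT116-DKO and 3.02 in HCT116-WT, and ZNF253 at 3.63 in HCT116-DKO and 3.60 in HCT116-WT. ZNF626 was at 5.55 in HCT116-DKO and 5.37 in HCT116-WT, a difference of 0.18 that was -0.03 under quantile normalization and -0.45 over its probe sets above background. ZNF253 likewise had -0.46 there, against 0.02 over all probe sets. ZNF676 was at 4.18 in HCT116-DKO and 3.87 in HCT116-WT (0.31, 5 of 8 probe sets higher), but its 1 probe set above background differed by -0.22. ZNF99 was at 3.45 in HCT116-DKO and 2.75 in HCT116-WT (0.70, 3 of 5 higher), with 0 probe sets above background.

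Along the chromosome the differences were further below 0 in the blocks nearer the centromere. The members were split by place into 3 blocks after their values had been seen. In the first 8 measured members, ZNF101 to ZNF430, the median was -0.12 (range -0.83 to 0.18) and 57.9% of 76 probe sets were lower. In the next 7, ZNF431 to ZNF208, all 7 genes were lower, with a median of -0.42 (range -2.96 to -0.06) and 75.4% of 69 probe sets lower. In the last 7, ZNF257 to ZNF254, 5 genes were lower, with a median of -0.96 (range -3.17 to 0.70) and 81.4% of 59 probe sets lower. Low and near-equal genes alternated, as ZNF429 (-0.06) lies between ZNF493 (-0.42) and ZNF100 (-1.78), and ZNF676 and ZNF99 precede ZNF91.

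No other measured gene lies between the first and the last member, so the nearest measured genes on both sides were taken, also after the values had been seen. The 10 before the first member, from MAU2 to ATP13A1, had a median difference of 0.04 (range -0.46 to 0.26) and 4 were lower. The 10 after the last member, which lie across the centromere and run from UQCRFS1 to ANKRD27, had a median of -0.02 (range -0.38 to 0.79) and 5 were lower. By the rule 0 of these 20 genes changed.

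The members differed in direction from ZNF genes elsewhere on chromosome 19. Beside the 22 members, of which 0 rose and 1 fell, 15 of 172 other measured ZNF genes of that chromosome rose and 0 fell, with a median difference of 0.31 (interquartile range -0.02 to 1.02). Without the demand on background 0 members were higher and 5 lower, against 41 higher and 1 lower of the 172. Of those above background in neither array, 13 of 17 members were lower, beside 11 of 82 other ZNF genes of the chromosome (13.4%). Over all 4464 genes above background in neither array 48.8% were lower. These levels lay below background, and the part of low signal in these counts was not tested. The median was 0.05 in 219 ZNF genes located on other chromosomes and 0.01 in 927 further genes of chromosome 19. Of these 219 ZNF genes 102 (46.6%) were lower, and by the rule 6 rose and 2 fell. The 2 were ZNF680 (-1.78) and ZNF711 (-2.30), so a fall was not confined to ZNF genes of the cluster. Over all genes 46.3% were lower, 2.66% rose and 0.535% fell. Genes of other chromosomes that are closest in sequence to the members were not set apart, so a lower signal shared with them is not excluded. With 1 array per group none of these differences between groups could be tested over samples.

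**Figure D4:**
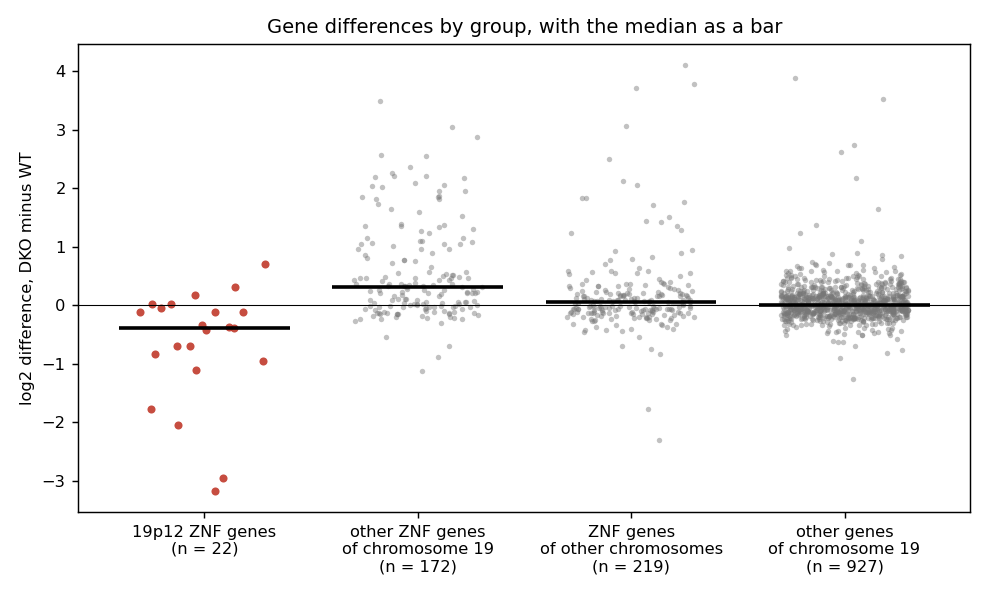
Log2 difference (HCT116-DKO minus HCT116-WT) of each gene in 4 groups, with 1 point per gene and a bar at the median; horizontal scatter within a group has no meaning. The 22 members have a median of -0.38 and lie mostly below 0, beside medians of 0.31, 0.05 and 0.01 in the other groups.

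Probe sets that the annotation gives to several genes of the cluster were left out of the gene levels and differed in the same direction. The probe set of ZNF257, ZNF98 and LOC730110 had 10.65 in HCT116-DKO and 11.59 in HCT116-WT, a difference of -0.93. One of the probe sets of ZNF208 and ZNF676 had 9.20 in HCT116-DKO and 10.34 in HCT116-WT, a difference of -1.14, and the other had 3.21 in HCT116-DKO and 4.82 in HCT116-WT. The annotation does not tell which of the genes they measured.

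The partners through which KRAB zinc finger proteins act were mostly near-equal in level. Of 28 listed partners and enzymes of DNA, H3K9 and H3K36 methylation all 28 were measured, 0 rose, 3 fell and the median difference was -0.05. Over all genes 2.66% rose and 0.535% fell. The 3 that fell were the disrupted genes DNMT1 and DNMT3B, and SUV39H1, an H3K9 methyltransferase of heterochromatin. SUV39H1 fell to 8.51 in HCT116-DKO, against 9.71 in HCT116-WT, 2.30-fold, with 7 of 7 probe sets lower. TRIM28, the corepressor bound by KRAB domains, was at 12.28 in both arrays. SETDB1, the methyltransferase it brings, was at 9.35 in HCT116-DKO and 9.59 in HCT116-WT, a difference of -0.24.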

How the data were processed

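The members and lists were chosen with earlier results of these data known. The authors deposited log2 signals, 1 per exon-level probe set and array, for 1 array of HCT116-DKO and 1 of HCT116-WT. RMA is the tool in the submitters' processing notes. Affymetrix Expression Console and Partek Genomic Suite both appear in the methods of the study. Which program made these values, and whether both arrays were normalized in 1 run, is not stated in the sources used here. The deposited columns carry no positions.

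Probe sets were named through the platform annotation of GEO, with older symbols updated through the RefSeq gene table (GRCh38.p14), used also for chromosome and gene order. Of 287329 probe sets 261481 had 1 gene and formed gene levels by median polish, 8947 had several and 16901 had no gene name. The SD beside a gene is over its probe sets in the same arrays and is no replicate error. Where the dimmer array lay below background, the fold is a lower bound, computed against the higher of that array's background and the gene's level there. No test was run. All 32 members were named, and of other genes the targeted ones, TRIM28, SETDB1 and fallen partners. Flanking genes, the changed or absent markers and the fallen ZNF genes of other chromosomes were named after their values were seen. Planned protein features were not computed, since no protein sequences were used here. Scripts ran in Python 3.11.15 with numpy 2.4.6 and pandas 2.3.3 and were tested on simulated data. The alternatives covered probe set summary, scaling, background, thresholds, the probe sets used and the minimum of probe sets. The number of arrays limits the precision.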

Additional observations from a re-analysis of the deposited data

How the results depend on the processing

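No paired analysis was possible because each group had 1 array, and for the same reason no replicate could be left out. The count of 0 risen members held under all 16 alternatives of the design and 4 added after the data were seen. The count of fallen members, 1 by the rule, was 2 with background at the 90th percentile (ZNF675 added), 2 with a log2 threshold of 0.58 (ZNF431 added), 2 with odd-numbered probe sets (ZNF254 added) and 2 with even-numbered ones (ZNF430 added), 5 with no demand on background, and 6 with only probe sets above background in at least 1 array. It was 0 with levels below background set to background. Of the added settings, which all dropped the demand on background, quantile normalization gave 6, odd-numbered probe sets 5, even-numbered probe sets 6 and keeping probe sets of several genes 5. ZNF738, ZNF100, ZNF91 and ZNF675 were lower in all 4 of these. The median difference of members, -0.38, was -1.03 with only probe sets above background, over 11 members, and 0.22 with levels set to background, which by construction gives every gene below it in both arrays the difference between both backgrounds. Quantile normalization gave -0.48 and median centring -0.47, while these scalings moved the median of all genes to -0.07. Of 172 recomputed gene differences 163 moved by less than the SD over probe sets. This SD was wide, so a change of sign could pass. ZNF254 went from -1.10 to 0.22 with levels set to background, and ZNF430 from -0.83 to 0.09 over odd-numbered probe sets. Both were within the SD, so the count does not show that directions held.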
